A study of Rattus norvegicus with 57 samples.

Results

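The genes described here mark the hepatocytes around the central vein of the liver lobule or follow Wnt signalling in them: Glul, Oat, Slc1a2, Rhbg, Axin2, Tbx3 and Cyp2e1. They are listed by name, and the list was chosen with earlier results of these data known. The rule for their probe sets uses no difference between groups. They were followed over 12 groups of rat livers on Affymetrix rat expression arrays. For each gene the probe set annotated to that symbol alone was taken, and where there were several, the one of highest mean log2 signal. Of the 7 genes, 6 had such a probe set, and Rhbg, an ammonium transporter of pericentral hepatocytes, had none in the annotation used and was not analysed here. The 7 genes had 12 probe sets in all, and the 6 measured genes were among 10726 genes tested. All 6 passed the filter on low values, which asked for a signal above 17.09, the median of all values, on at least 4 arrays.

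The rats were male Han Wistar animals of 8 to 10 weeks, housed singly, 1 array per liver. Control rats received the vehicle, carboxymethylcellulose, by daily gavage (0 mg/kg), and treated rats received methapyrilene, an antihistamine known to injure rat liver, at 30 or 80 mg/kg each day. Livers were taken on day 4, 8 or 15, or on day 24, when 14 days of dosing had been followed by 10 days without it. Each group had 5 arrays, except that 3 groups had 4: the day 24 controls, the day 24 livers at 30 mg/kg and the day 4 livers at 80 mg/kg. Signals are the authors' MAS5 intensities on a linear scale. Changes are log2 differences between group means ± standard error from limma, and a gene passed at a Benjamini-Hochberg adjusted p under 0.05 over all genes tested. RNA came from whole liver tissue, so fewer cells of a type and less RNA per cell cannot be told apart.

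In liver, Wnt ligands and R-spondins from endothelial cells of the central vein bind Frizzled and LRP receptors on nearby hepatocytes, which stabilises beta-catenin. Beta-catenin then joins TCF factors at target genes. This sets the pericentral programme, in which glutamine synthetase captures the ammonia that periportal urea synthesis has left and cytochrome P450 enzymes oxidise foreign compounds.

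The DNA just before the start sites of these genes was searched for the core word bound by TCF factors, spelled CTTTG and then AT, AA, TT or TA, on either strand. RefSeq starts of build GRCr8 were used, with the 250 bases before each. 5 of the measured genes have at least 1 start in that table. Of 33469 starts in the table, 14.9% have at least 1 such word and 1.73% have 2 or more. The sequences below are those of the 4 measured genes with a match, and of Oat, which had none but showed the deepest fall. They are written 5′ to 3′ on the gene's strand, with the matching words in capitals.
Glul, upstream of its 2 starts, + strand, chr13:68519250-68519499: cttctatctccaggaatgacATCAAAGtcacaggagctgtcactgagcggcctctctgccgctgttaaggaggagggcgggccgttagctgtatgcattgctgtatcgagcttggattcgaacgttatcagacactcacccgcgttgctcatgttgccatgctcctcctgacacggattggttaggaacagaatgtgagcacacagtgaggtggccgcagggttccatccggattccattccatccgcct
Slc1a2, downstream of its 2 starts, + strand, chr3:109507697-109507946: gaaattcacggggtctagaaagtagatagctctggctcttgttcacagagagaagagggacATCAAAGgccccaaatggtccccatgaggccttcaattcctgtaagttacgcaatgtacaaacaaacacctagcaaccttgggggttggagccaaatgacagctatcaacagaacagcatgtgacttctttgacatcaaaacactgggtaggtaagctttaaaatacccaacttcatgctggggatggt
Axin2, + strand, chr10:94398535-94398784: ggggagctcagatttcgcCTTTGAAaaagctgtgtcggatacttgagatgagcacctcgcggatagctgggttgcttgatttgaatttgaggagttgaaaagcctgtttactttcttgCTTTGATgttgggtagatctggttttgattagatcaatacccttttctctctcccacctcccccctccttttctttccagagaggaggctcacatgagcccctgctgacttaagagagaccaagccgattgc
Cyp2e1, + strand, chr1:205269717-205269966: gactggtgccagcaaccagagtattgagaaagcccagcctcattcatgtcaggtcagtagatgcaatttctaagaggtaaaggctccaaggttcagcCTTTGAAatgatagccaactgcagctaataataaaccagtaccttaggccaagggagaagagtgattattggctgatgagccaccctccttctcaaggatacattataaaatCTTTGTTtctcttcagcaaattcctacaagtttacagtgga
Oat, - strand, chr1:196797755-196798004: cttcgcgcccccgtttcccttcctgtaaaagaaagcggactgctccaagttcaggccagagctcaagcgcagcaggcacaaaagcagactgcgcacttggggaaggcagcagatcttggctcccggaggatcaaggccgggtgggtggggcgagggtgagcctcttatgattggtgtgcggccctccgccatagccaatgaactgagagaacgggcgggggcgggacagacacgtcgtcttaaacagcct
Axin2 held 2 words, with first bases at -232 and -132 from the start, and Cyp2e1 held 2, at -153 and -41. The 1 Axin2 start used lies inside the span of that gene, 94393379 to 94426579. The DNA before the first base of Axin2 was therefore not searched. Glul held 1 at -230 and Slc1a2 held 1 at -189, both as atcaaag, the word ending in AT read on the other strand. The other start of Glul and of Slc1a2 held none. The absence of a word says only that these letters are not in this window, and no signal was tested against the matches.

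Oat encodes ornithine aminotransferase, a mitochondrial enzyme that turns ornithine toward glutamate and that is confined to pericentral hepatocytes with glutamine synthetase. It lies on chromosome 1 at 196777973 to 196797754 (GRCr8) and had 1 probe set, at the 97.2th percentile of mean signal among the genes tested. Oat fell at 80 mg/kg on each day of dosing and the fall was deepest on days 8 and 15.

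On day 4 the control signals of Oat were 3152, 3467, 3686, 4211 and 3805, and those at 80 mg/kg were 2602, 2554, 2795 and 1139. On day 8 control rats had 3013, 3293, 2666, 3222 and 2682, and 80 mg/kg rats had 821, 1548, 1107, 547 and 948. On day 15 control rats had 3164, 2218, 3361, 4045 and 3869, and 80 mg/kg rats had 965, 715, 967, 672 and 1065. The treated and control livers did not overlap on any of these days. The log2 change was -0.77 ± 0.21 on day 4 (adjusted p = 0.00398), -1.66 ± 0.19 on day 8 (7.38e-10) and -1.92 ± 0.19 on day 15 (4.14e-12). The day 15 change is a 3.78-fold fall. The day 4 change was carried in part by 1 liver, replicate 5 at 1139, and without it was -0.46 with an adjusted p of 0.0967.

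After recovery Oat at 80 mg/kg read 2367, 2660, 2874, 2820 and 2677 against 2377, 3252, 3613 and 3376 in control rats. The groups overlapped, and the difference of -0.22 ± 0.21 did not pass (adjusted p = 0.525). The Oat differences at 30 mg/kg were between -0.10 and 0.19 on the 4 days and did not pass. Against 30 mg/kg, Oat at 80 mg/kg was lower by -0.73 ± 0.21 on day 4 (adjusted p = 0.00894), -1.85 ± 0.19 on day 8 (9.12e-11) and -1.82 ± 0.19 on day 15 (3.24e-11). Without replicate 5 of the 80 mg/kg group the day 4 value was -0.43 (0.167).

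**Figure D1:**
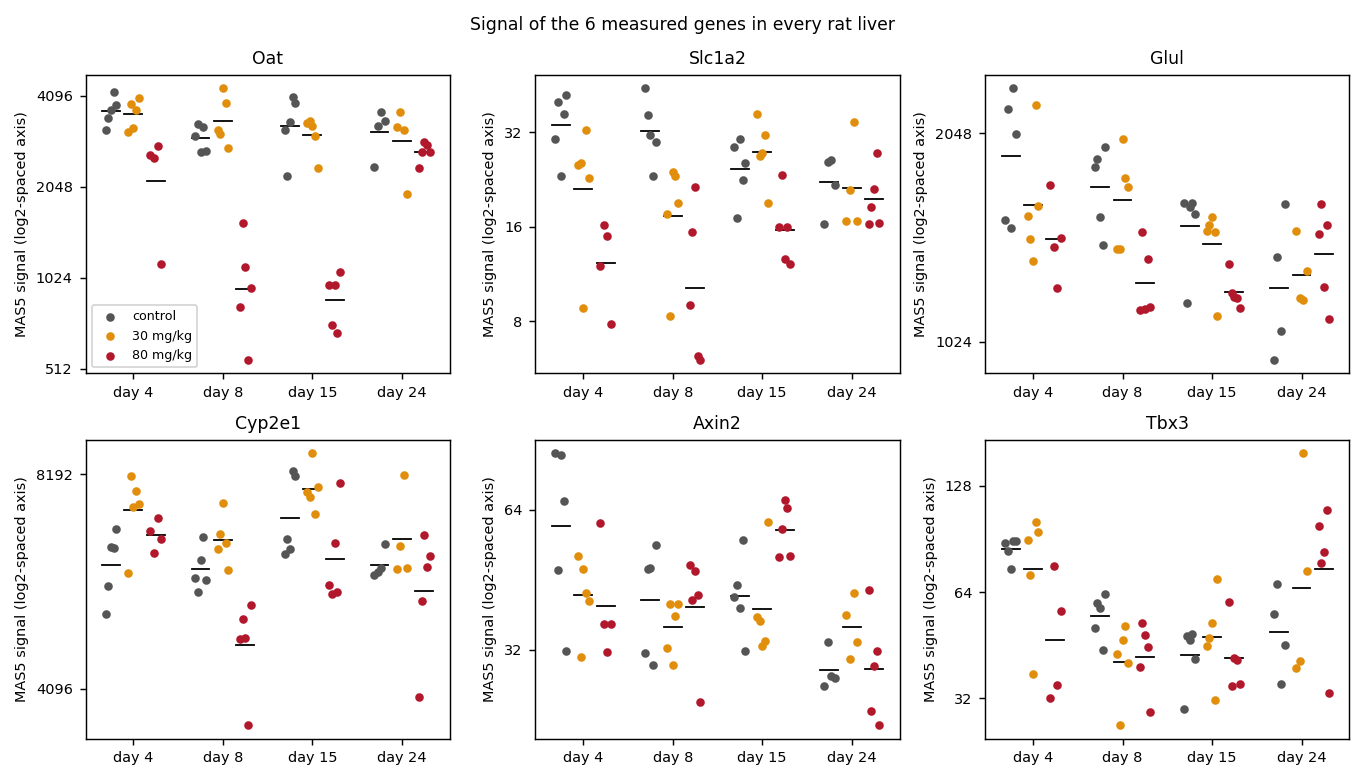
MAS5 signal (log2-spaced axis) of the 6 measured genes in each of the 57 livers, by day and dose. Points are livers and bars are geometric means. For Oat the 80 mg/kg livers of days 8 and 15 lie between 547 and 1548, below all livers of the other doses, and on day 24 they lie between 2367 and 2874.

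Slc1a2 encodes the glutamate transporter GLT-1, which pericentral hepatocytes use to take up glutamate for glutamine synthesis. Its gene lies on chromosome 3 at 109460109 to 109590445. Its signal was low, at the 14.7th percentile of mean signal, and exceeded 17.09 on 37 of 57 arrays. A second probe set did not pass the filter. Detection calls were not used here, so values near the floor of the array have little precision.

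The control signals of Slc1a2 on day 4 were 30.4, 40.0, 23.3, 36.6 and 42.0, and those at 80 mg/kg were 12.0, 16.2, 15.0 and 7.85. On day 8 control rats had 44.2, 36.4, 31.5, 23.3 and 29.8, and 80 mg/kg rats had 9.02, 15.4, 21.4, 6.21 and 6.02. No treated liver reached the lowest control liver of its day. Slc1a2 fell by -1.46 ± 0.32 on day 4 (adjusted p = 0.000465) and by -1.66 ± 0.30 on day 8 (9.22e-06). Of the 9 treated livers of these days 8 lay below 17.09, the level of the filter, which the gene passed through the groups where it is higher. The size of the fall is therefore not well measured, and no fold is given.

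On day 15 Slc1a2 read 15.97, 23.3, 12.7, 15.98 and 12.2 at 80 mg/kg and 28.7, 17.0, 30.5, 22.6 and 25.5 in control rats, a difference of -0.65 ± 0.30 (adjusted p = 0.063). It passed under 5 of 12 alternative settings, quantile normalization among them (-0.76, adjusted p = 0.0304). On day 24 the difference was -0.18 ± 0.32 (0.766). The log2 changes at 30 mg/kg were -0.68 on day 4 (adjusted p = 0.297) and -0.90 on day 8 (0.188), where 4 of 5 livers lay below all controls. They were 0.18 on day 15 and -0.06 on day 24, and none passed. Against 30 mg/kg, Slc1a2 at 80 mg/kg was lower on day 8 (-0.76 ± 0.30, adjusted p = 0.0363) and day 15 (-0.83 ± 0.30, 0.0181). The day 8 call was lost on leaving out any of 7 of the 10 livers, with adjusted p up to 0.137, and the day 15 call on leaving out 30 mg/kg replicate 1 (0.0541).

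Glul encodes glutamine synthetase, the enzyme that joins ammonia to glutamate and the classical marker of the innermost ring of pericentral hepatocytes. It lies on chromosome 13 at 68519500 to 68585554. Glul had 3 probe sets, all above the filter, and they did not move alike. The probe set of highest signal, 1367632_at, was lower at 80 mg/kg during dosing, while the other 2 were not lower and were higher on day 15.

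For 1367632_at the control signals were 1533, 2218, 1492, 2378 and 2040 on day 4 and 1828, 1880, 1549, 1411 and 1958 on day 8. At 80 mg/kg they were 1721, 1402, 1225 and 1446 on day 4 and 1137, 1476, 1142, 1346 and 1150 on day 8. On day 15 they were 1624, 1163, 1599, 1620 and 1566 in control rats and 1325, 1201, 1187, 1182 and 1146 at 80 mg/kg. The groups overlapped on each day, by 1 low control liver on day 15. The log2 change was -0.40 ± 0.15 on day 4 (adjusted p = 0.0353), -0.46 ± 0.14 on day 8 (0.00452) and -0.32 ± 0.14 on day 15 (0.045). On day 24 it was 0.17 ± 0.15 (0.5). The day 4 call was lost on leaving out any of 6 of the 9 livers (adjusted p up to 0.14) and the day 15 call on leaving out any of 8 of the 10 (up to 0.0907). With the mean of its probe sets standing for Glul, the values were -0.15, -0.07 and 0.20 on days 4, 8 and 15, and none passed. With quantile normalization they were -0.36, -0.27 and -0.09, and none passed either.

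For 1386870_at the control signals on day 15 were 846, 625.3, 895, 846 and 837, and those at 80 mg/kg were 1230, 1247, 1167, 1161 and 1065. All 5 treated livers lay above all 5 control livers. In the fit of all 18727 probe sets above the filter, the changes of this probe set were -0.04 on day 4, 0.16 on day 8, 0.54 ± 0.14 on day 15 (adjusted p = 0.000926) and -0.06 on day 24. Those of 1367633_at were -0.03, 0.10, 0.38 ± 0.14 (0.0206) and -0.09. In the same fit 1367632_at was -0.32 ± 0.14 on day 15 (0.0497).

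Because both signals of a pair come from the same array, their gap was compared within arrays, a comparison chosen after the values were seen. In control rats of day 15 the log2 gap of 1367632_at over 1386870_at was 0.90 ± 0.04 (SD, n = 5), and at 80 mg/kg it was 0.04 ± 0.07 (SD, n = 5). The gap was thus smaller at 80 mg/kg by 0.36 log2 units on day 4, 0.62 on day 8 and 0.86 on day 15. There was no overlap between treated and control arrays on any of these days. Exact two-sided permutation p was 0.0159 on day 4 and 0.00794 on days 8 and 15, the smallest that these group sizes allow, and 0.0317, 0.0238 and 0.0238 after adjustment over the 12 gaps compared. The gap to 1367633_at differed by -0.38, -0.56 and -0.70 on these days, with the same exact permutation p-values. On day 4 the adjusted p was 0.0612 without any one of the 4 treated livers, but with 3 against 5 arrays the exact p could not be smaller, so this says nothing of a single liver. On day 24 the differences were 0.23 (adjusted p = 0.0714) and 0.25 (0.233), and the groups overlapped. The gap between the other 2 probe sets differed by -0.06 on day 8 and by -0.16 on day 15 (exact permutation, adjusted p = 0.0408), and the latter was lost on leaving out any of 9 of the 10 livers (adjusted p up to 0.0714). On day 15 the direction of Glul at 80 mg/kg therefore depended on the probe set, and which part of the transcript each probe set reads was not examined here.

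**Figure D2:**
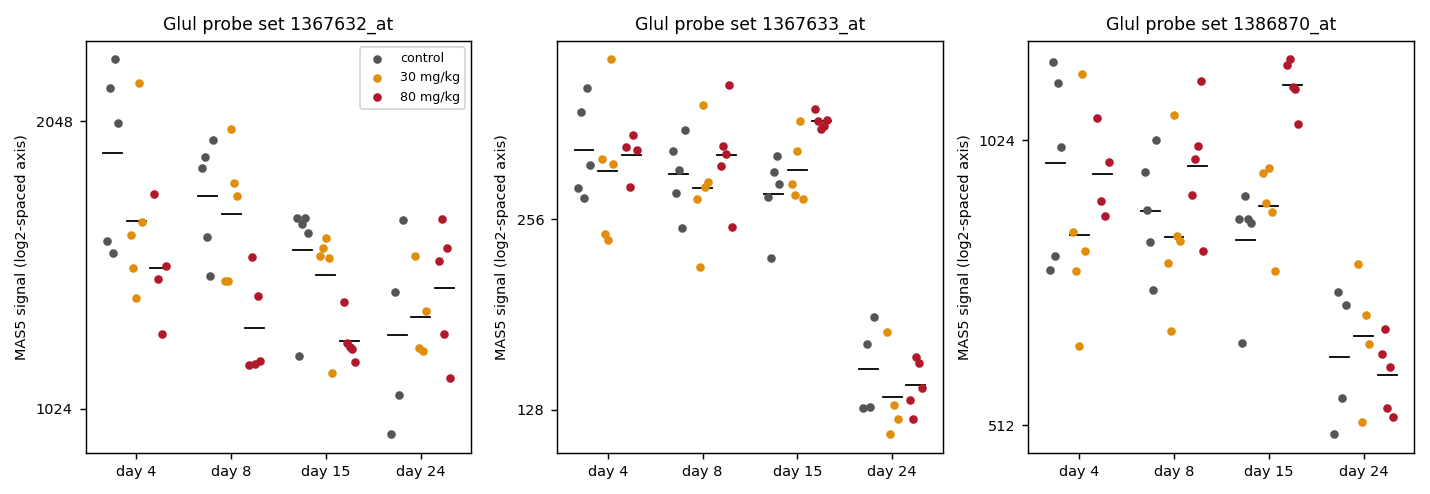
MAS5 signal (log2-spaced axis) of the 3 Glul probe sets in every liver, by day and dose; points are livers and bars geometric means. On day 15 the 80 mg/kg livers lie between 1146 and 1325 for 1367632_at, at the low end of the control range, and between 1065 and 1247 for 1386870_at, above all controls.

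The differences of 1367632_at at 30 mg/kg were between -0.24 and 0.07 and did not pass on any day. Against 30 mg/kg, this probe set at 80 mg/kg was lower on day 8 (-0.40 ± 0.14, adjusted p = 0.0161), a call lost with quantile normalization (-0.20, 0.266) and without 30 mg/kg replicate 3 (0.0642).

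Axin2 is a direct Wnt target in many tissues and encodes a scaffold of the complex that degrades beta-catenin, so that it also restrains the pathway. Its gene lies on chromosome 10 at 94393379 to 94426579, and its 1 probe set stood at the 27.9th percentile of mean signal. Its difference at 80 mg/kg went from below control on day 4 to above control on day 15, though neither difference passed. Over these days its mean log2 signal went from 5.885 to 5.383 in control rats and from 5.314 to 5.855 at 80 mg/kg.

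On day 4 Axin2 read 84.7, 47.5, 84.1, 66.9 and 31.9 in control rats and 60.02, 36.3, 31.6 and 36.4 at 80 mg/kg. On day 15 it read 41.6, 44.1, 39.3, 55.1 and 31.9 in control rats and 50.7, 58.2, 67.1, 64.6 and 51.0 at 80 mg/kg, where 3 of 5 treated livers lay above all controls. The log2 difference was -0.57 ± 0.23 on day 4 (adjusted p = 0.0547), -0.05 ± 0.21 on day 8 (0.876), 0.47 ± 0.21 on day 15 (0.0545) and 0.01 ± 0.23 on day 24, so that none passed against control. The day 4 value passed under 5 of 13 alternative settings, among them quantile normalization (-0.67, adjusted p = 0.019) and arrays shifted to a common median (-0.70, 0.0125). The day 15 value passed under 3 of 13, among them with only the 2 groups fitted (0.47, 0.0149). Against 30 mg/kg, Axin2 at 80 mg/kg was higher on day 15 by 0.57 ± 0.21 (adjusted p = 0.0222), a call lost with quantile normalization (0.34, 0.165), with a common median (0.44, 0.0629) and without any of 3 single livers.

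The effect of 80 mg/kg on Axin2 differed between day 15 and day 4 by 1.04 ± 0.31 (adjusted p = 0.0108), a comparison added after the values were seen, in which 24.4% of all genes passed. This call held on leaving out each of the 19 livers in turn, with adjusted p up to 0.033. It was lost with the actin 3'/5' signal ratio as a covariate (0.84, adjusted p = 0.0807). The Axin2 values at 30 mg/kg were -0.49 on day 4 (adjusted p = 0.278), -0.20, -0.10 and 0.31 on the later days, and none passed.

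Tbx3 is a T-box transcription factor and a Wnt target of pericentral hepatocytes. Its gene lies on chromosome 12 at 42540378 to 42555490. Of its 4 probe sets 2 passed the filter, and the one used, 1393160_at, stood at the 34.8th percentile. Control signals on day 4 were 88.3, 83.4, 74.3, 89.4 and 89.2, and those at 80 mg/kg were 32.0, 75.9, 34.97 and 56.5. The 4 treated livers were spread widely, and 1 of them lay within the control range. Tbx3 fell by -0.86 ± 0.30 on day 4 (adjusted p = 0.0297), and differed by -0.38, -0.03 and 0.59 on days 8, 15 and 24, without passing. The day 4 call was lost on leaving out any of 4 of the 9 livers (adjusted p up to 0.123) and with the actin ratio as a covariate (0.0507). The second probe set gave -0.85 ± 0.53 on day 4 (0.261). On day 24 the 80 mg/kg livers read 98.5, 77.2, 82.9, 109 and 33.2 against 55.5, 67.6, 35.1 and 45.2, and 4 of 5 lay above all controls. Without the low one, replicate 5, the difference was 0.88 and passed (adjusted p = 0.0413).

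Cyp2e1 encodes a pericentral cytochrome P450 that oxidises ethanol, paracetamol and other small molecules. Its gene lies on chromosome 1 at 205269967 to 205280365. Its signal was among the highest on the array, at the 99.7th percentile. On day 8 it read 5860, 5607, 6210, 6695 and 5829 in control rats and 4808, 5130, 4824, 3642 and 5363 at 80 mg/kg, without overlap. It fell by -0.36 ± 0.11 on day 8 (adjusted p = 0.00572), a 1.28-fold fall, and differed by 0.14, -0.19 and -0.12 on days 4, 15 and 24, without passing. Against 30 mg/kg, Cyp2e1 at 80 mg/kg was lower by -0.49 ± 0.11 on day 8 (0.000229) and by -0.33 ± 0.11 on day 15 (0.00931). At 30 mg/kg it lay 0.12 to 0.26 above control on the 4 days and did not pass.

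The direction of Cyp2e1 depended on how arrays were scaled. With quantile normalization the day 8 difference from control was 0.02 (adjusted p = 0.841) and the day 15 difference 0.21 (0.00241), above control. Against 30 mg/kg the day 8 value was then -0.10 (0.181) and the day 15 value 0.06 (0.438). Abundant hepatocyte markers shifted in the same way. Of 10 measured markers such as Alb and Apoa1, 8 fell on day 8 and 8 on day 15, with median changes of -0.41 and -0.50, and with quantile normalization the medians were -0.02 and -0.05, with 2 falling and 2 rising on day 8 and 5 falling and 1 rising on day 15. All 10 fell on both days with a common median. The part of this shift in the Cyp2e1 result was not tested.

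Counted together, 4 of the 6 measured genes passed at 80 mg/kg on day 4, all lower (Glul, Oat, Slc1a2 and Tbx3), where 27.5% of all genes passed. On day 8 it was 4 of 6, all lower (Glul, Oat, Slc1a2 and Cyp2e1), where 50.8% passed, and on day 15 it was 2 of 6, both lower (Glul and Oat), where 59.2% passed. On day 24 it was 0 of 6, where 10.2% passed. The median change of the 6 genes was -0.67, -0.42, -0.25 and -0.06 on the 4 days, and that of all genes 0.08, 0.15, 0.16 and 0.04. Without Glul, whose probe sets disagreed, the counts were 3, 3, 1 and 0 of the other 5. With so many genes changed on days 8 and 15, a count of members passing is no mark of these genes.

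At 30 mg/kg 0 of 6 passed in limma on any day (a Benjamini-Hochberg adjusted p under 0.05), where 0.783%, 0.233%, 4.6% and 0.0932% of all genes passed on days 4, 8, 15 and 24. At an unadjusted p under 0.05 the count was 3 on day 4 (Slc1a2 and Axin2 lower, Cyp2e1 higher). On day 8 it was 1 (Slc1a2 lower), and on days 15 and 24 it was 0. The shares above are for adjusted p and do not apply to these counts. On day 4, 10.3% of all genes had an unadjusted limma p no larger than that of Slc1a2 (0.0305). On day 8 that share was 2.38% (0.00448). The comparisons with control share their control livers between the doses. Between 80 and 30 mg/kg directly, 1 of 6 passed on day 4 (Oat), where 20.1% of all genes did, and 4 of 6 on day 8 (Glul, Oat, Slc1a2 and Cyp2e1, all lower at 80 mg/kg), where 46.1% did. On day 15 it was 4 of 6 (Oat, Slc1a2 and Cyp2e1 lower, Axin2 higher), where 55.2% did, and on day 24 0 of 6, where 6.77% did.

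**Figure D3:**
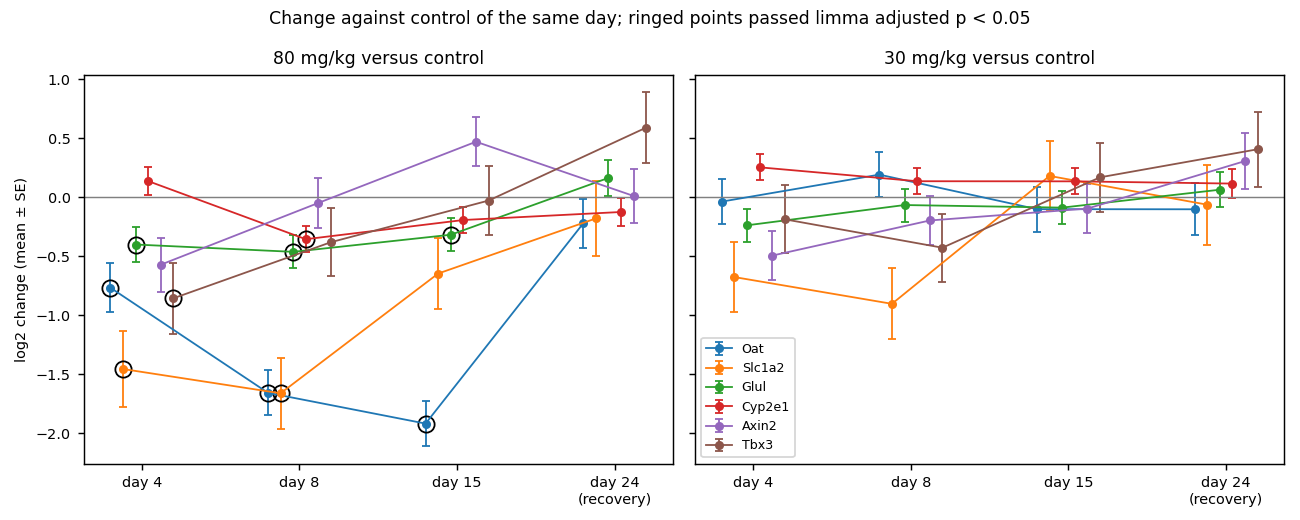
Log2 change ± standard error against control of the same day for the 6 measured genes, at 80 mg/kg (left) and 30 mg/kg (right). Ringed points passed. Oat at 80 mg/kg runs from -0.77 on day 4 to -1.92 on day 15 and -0.22 after recovery, and no point is ringed at 30 mg/kg.

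The change of the effect between days was tested directly. From day 4 to day 8 the effect of 80 mg/kg became lower for Oat (-0.89 ± 0.28, adjusted p = 0.0459) and Cyp2e1 (-0.49 ± 0.16, 0.0487), where 6.68% of all genes passed. Each of these 2 calls was lost under 8 of 13 alternative settings. From day 8 to day 15 none of the 6 passed in limma, where 4.98% of all genes passed. At an unadjusted p under 0.05 there was 1, Slc1a2 (1.02 ± 0.43, adjusted p = 0.155). For this interval 14% of all genes had an unadjusted limma p no larger than that of Slc1a2 (0.0218). From day 4 to day 15 the effect on Oat became lower (-1.15 ± 0.28, adjusted p = 0.00193), also under all 13 alternative settings.

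From day 15 to the end of recovery the effect on Oat moved back by 1.70 ± 0.28 (adjusted p = 2.71e-06), where 42.7% of all genes passed, and this held under all 13 alternative settings and without each of the 19 livers. The effect on Glul probe set 1367632_at moved by 0.48 ± 0.20 (0.0486), a call lost under 8 of 13 settings and, with the mean of the probe sets, turned to -0.20. Slc1a2, Tbx3, Axin2 and Cyp2e1 did not pass, at 0.47, 0.62, -0.46 and 0.07. At 30 mg/kg 0 of 6 passed over the same interval in limma, where 1.09% of all genes passed. None of the 6 had an unadjusted limma p under 0.05 there either.

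The control livers themselves differed between days. An F test over the 4 control groups passed for Axin2 (F = 6.91, adjusted p = 0.00528), Glul (6.91, 0.00529) and Tbx3 (4.43, 0.0355), where 24.7% of all genes passed. Against day 4, Axin2 in control rats was lower by -0.53, -0.50 and -1.03 on days 8, 15 and 24, Glul by -0.15, -0.34 and -0.63, and Tbx3 by -0.63, -1 and -0.78. Oat, Slc1a2 and Cyp2e1 did not pass. The actin 3'/5' ratio, a measure of how far labelling reached along the transcript, also differed by day. Its group medians were 2.67 to 2.79 on the log2 scale on day 24 and 2.10 to 2.40 on the other days. With that ratio as a covariate none of the 3 calls passed (F = 2.24, 1.81 and 3.07, with adjusted p of 0.237, 0.323 and 0.132). In the tests against control, treated livers were compared only with control livers of the same day. On day 24 Glul probe set 1367633_at read 117 to 179 over all 3 doses, below every liver of days 4 to 15, whose lowest value was 215.

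Over the whole series, MAS5 scaling gave each array the same trimmed mean, and 3664 genes rose and 1782 fell at 80 mg/kg on day 8. With arrays shifted to a common median these were 1772 and 2998, and the median change of all genes went from 0.15 to -0.07. On days 4, 15 and 24 the rises and falls were 1966 and 986, 4160 and 2194, and 767 and 330. With a common median they were 943 and 1596, 3099 and 2790, and 267 and 3360, and the median on day 24 went from 0.04 to -0.21. With quantile normalization they were 1689 and 1138, 2709 and 2178, 3324 and 2676, and 461 and 312 on the 4 days, and the median was at most 0.04.

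The counts of the gene lists that follow stand beside 27.5%, 50.8%, 59.2% and 10.2% of all genes that passed at 80 mg/kg on days 4, 8, 15 and 24. No list was tested against other genes, and a count near these shares is no result about a list. Among Wnt ligands, R-spondins and the ligand carrier Wls, 7 of 14 listed genes were measured, Wnt9b not among them. At 80 mg/kg Wnt2, a ligand of central vein and sinusoidal endothelium, fell on day 4 (-0.54 ± 0.21, adjusted p = 0.0475) and was higher on day 24 (0.62 ± 0.21, 0.0461). Wls, which carries Wnt proteins to the cell surface, rose on day 8 (0.59 ± 0.15, 0.001), day 15 (0.48 ± 0.15, 0.00572) and day 24 (1.04 ± 0.16, 6.6e-05). Rspo3, the R-spondin of the central vein, rose on day 15 (0.72 ± 0.28, 0.026). In all, 0, 1, 2 and 2 rose and 1, 0, 0 and 0 fell on days 4, 8, 15 and 24. With quantile normalization or a common median none passed on day 15 and 1 rose on day 24. Summed endothelial marker signals on day 24 were 1582 to 2137 at 80 mg/kg and 1389 to 1561 in controls, and the part of this in the day 24 values was not tested.

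Of 8 measured Wnt receptor genes, 2 fell on day 4, 4 on day 8 and 6 on day 15. Falls over all 10726 genes also grew in number, from 986 to 1782 and 2194. On day 15 there was also 1 that rose, and on day 24 the count passing was 0. The co-receptor Lrp5 fell on day 15 by -1.65 ± 0.16 (adjusted p = 7.8e-13), and the Frizzled receptors Fzd8 and Fzd4 fell by -1.16 ± 0.11 (1.2e-12) and -1.06 ± 0.21 (2.97e-05). Fzd6 rose by 1.26 ± 0.26 (3.55e-05). The median change of the 8 receptors was -0.05, -0.55, -0.996 and -0.03 on the 4 days. On day 15 the counts were 6 lower and 1 higher with quantile normalization and with a common median. On day 24 these scalings gave 1 and 2 lower.

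Of 19 measured genes of signal transduction and the TCF complex, 1 rose on day 4. On day 8, 4 rose and 2 fell, on day 15, 4 rose and 4 fell, and on day 24, 2 rose. With a common median 0, 1, 4 and 1 rose and 4, 5, 7 and 5 fell on the 4 days. Ctnnb1, which encodes beta-catenin, changed little, by -0.14 ± 0.06 on day 8 (adjusted p = 0.0299) and -0.23 ± 0.06 on day 15 (0.000378). On day 15 Lef1, a TCF family factor, rose by 1.27 ± 0.25 (1.85e-05) and Csnk1e, a casein kinase of the pathway, by 0.86 ± 0.14 (6.23e-07). The co-repressor Tle1 fell by -0.86 ± 0.18 (4.13e-05) and the beta-catenin cofactor Bcl9l by -0.68 ± 0.16 (0.000277).

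Of 7 measured Wnt inhibitors and feedback genes, 0, 1, 2 and 1 rose and 0, 0, 1 and 0 fell on the 4 days. Sfrp1, a secreted Wnt binder, rose on day 8 (0.84 ± 0.23, adjusted p = 0.00206) and day 15 (0.59 ± 0.23, 0.0243). Dkk3 rose on day 15 (0.80 ± 0.24, 0.00366) and Sfrp4 fell (-1.34 ± 0.53, 0.0274). Znrf3, a ligase that removes Wnt receptors and is itself a Wnt target, did not pass during dosing and rose on day 24 (0.86 ± 0.25, 0.0213).

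Of 9 measured Wnt targets known from many tissues, 3, 4, 4 and 1 rose and 1, 0, 0 and 0 fell on the 4 days. The list holds Axin2 and Tbx3, and Tbx3 was the 1 that fell. The 4 of 9 that passed on days 8 and 15 are a lower share than that of all genes passing in either direction. All 4 rose. Rises over all 10726 genes were 3664 on day 8 and 4160 on day 15, a lower share than 4 of 9. With quantile normalization or a common median 2 rose and 2 fell on day 4. The day 8 rises were then 3 with quantile normalization and 2 with a common median, and those of day 15 stayed at 4. On day 15 Ccnd1, which drives entry into the cell cycle, rose by 2.47 ± 0.23 (adjusted p = 1.63e-13), Myc by 1.84 ± 0.39 (5.24e-05) and the adhesion receptor Cd44 by 1.64 ± 0.18 (4.09e-11), and Lef1 was the other. These 4 genes are also controlled by other growth pathways. The feedback genes Axin2, Nkd1 and Znrf3 did not pass on days 4, 8 or 15.

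**Figure D4:**
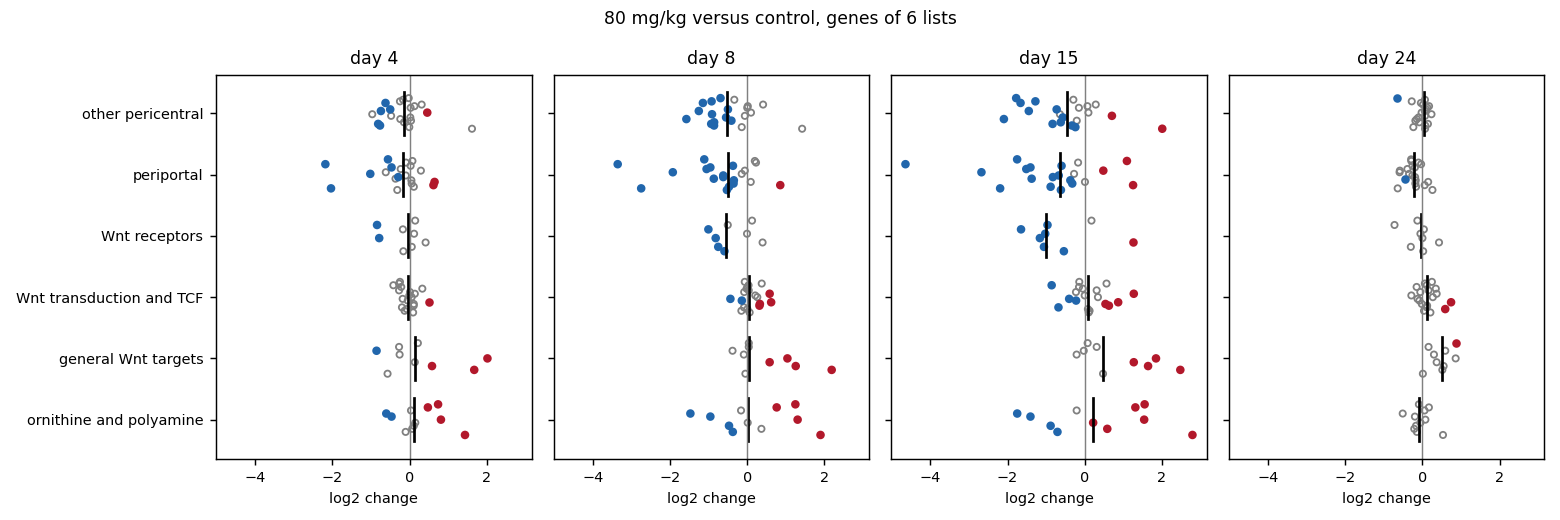
Log2 change at 80 mg/kg against control for the measured genes of 6 lists, by day. Each point is a gene, filled where it passed (red higher, blue lower), and bars are list medians. On day 15 the median of the Wnt receptors is -0.996, of other pericentral genes -0.45 and of periportal genes -0.65.

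Of 20 other pericentral hepatocyte genes measured, 5 fell and 1 rose on day 4, 12 fell on day 8, 11 fell and 2 rose on day 15, and 1 fell on day 24. On day 15 Cyp2c11, a male-specific cytochrome P450, fell by -2.10 ± 0.22 (adjusted p = 8.27e-12), the organic anion transporter Slco1a4 by -1.78 ± 0.18 (2.32e-12) and Rgn, of vitamin C synthesis, by -1.66 ± 0.12 (6.61e-17). Ahr, the aryl hydrocarbon receptor, rose by 2.01 ± 0.71 (0.0139) and Cyp7a1, the first enzyme of bile acid synthesis, by 0.70 ± 0.28 (0.0262). The median was -0.16, -0.52, -0.45 and 0.04 on the 4 days.

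Periportal hepatocyte genes, from the opposite end of the lobule, gave similar counts. Of 20 measured, 6 fell and 2 rose on day 4, 14 fell and 1 rose on day 8, 14 fell and 3 rose on day 15, and 1 fell on day 24, with medians of -0.16, -0.50, -0.65 and -0.23. With a common median 13 periportal and 5 pericentral genes were lower on day 24. The serine dehydratase gene Sds fell by -4.64 ± 0.51 on day 15 (adjusted p = 5.04e-11), the histidine lyase gene Hal by -2.68 ± 0.23 (2.11e-14) and Apoa4 by -2.19 ± 0.24 (2.68e-11). Asl, of the urea cycle, rose by 1.25 ± 0.12 (2.28e-12). Whether the pericentral and periportal lists differ was not tested.

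Genes around the substrate of Oat went both ways. Of 11 measured genes of ornithine, proline and polyamine metabolism, 4 rose and 2 fell on day 4, 4 rose and 4 fell on day 8, 6 rose and 4 fell on day 15, and 0 passed on day 24. On day 24, 7 fell with a common median. On day 15 Aldh18a1, which makes ornithine and proline precursors from glutamate, rose by 2.79 ± 0.19 (adjusted p = 4.33e-18). Srm and Odc1, of polyamine synthesis, rose by 1.55 ± 0.10 (2.74e-18) and 1.54 ± 0.12 (6.52e-16). The proline oxidase gene Prodh fell by -1.75 ± 0.19 (3.37e-11), the urea cycle gene Otc by -1.41 ± 0.11 (2.39e-15) and the arginase gene Arg1 by -0.89 ± 0.10 (3.35e-10).

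Of 14 other genes of glutamate, glutamine and ammonia handling, 1 rose on day 4, 2 rose and 6 fell on day 8, 3 rose and 8 fell on day 15, and 1 fell on day 24. On day 15 the transporters Slc1a5, Slc1a4 and Slc1a3, of the same family as Slc1a2, rose by 2.71 ± 0.61 (adjusted p = 0.000169), 1.96 ± 0.31 (3.57e-07) and 0.82 ± 0.33 (0.0313). The aminotransferase gene Gpt fell by -1.45 ± 0.23 (2.83e-07), the liver glutaminase gene Gls2 by -0.68 ± 0.15 (0.000152) and the glutamine transporter gene Slc38a3 by -0.66 ± 0.09 (9.79e-09). With quantile normalization 2 rose and 3 fell on day 15, and the list median was 0.03 in place of -0.24. On day 24, 8 fell with a common median.

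Markers of liver cell types were counted in the same way. All 10 measured hepatocyte markers were well expressed, with summed signals of 54070 to 81260 in control livers. The sum was 45580 to 55560 at 80 mg/kg on day 8, against 56630 to 72490 in the controls of that day, and 46030 to 66560 on day 15, against 61880 to 81260. Of 7 measured biliary markers, such as Epcam and Cldn7, 6, 6, 7 and 4 rose on the 4 days, and their summed signal on day 15 was 1028 to 1565 at 80 mg/kg against 236 to 316 in controls. Of 9 macrophage markers 2, 7, 6 and 8 rose and 1, 1, 1 and 0 fell, with sums of 3682 to 4737 against 3016 to 3693 on day 15. Of 13 endothelial markers, which include the ligand genes Wnt2 and Rspo3, 0, 2, 2 and 6 rose and 1, 2, 2 and 0 fell, with sums of 1724 to 1990 against 1726 to 2337. Of 11 stellate markers 2, 1, 3 and 5 rose and 2, 1, 2 and 0 fell. With a common median no endothelial marker and 3 macrophage markers rose on day 24. Of 3 lymphocyte markers and 1 neutrophil marker none passed in limma. The part of cell composition in the falls of Oat, Slc1a2 and the other genes was not tested. The median hepatocyte marker changed by 0.08 on day 4 and by -0.50 on day 15, and the latter depended on scaling, as given above. These markers stand for hepatocytes in general and cannot show a change in pericentral cells alone.

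The 6 genes were also compared between livers of one group, after subtraction of each group's mean. Of 15 pairs over 57 arrays, 4 passed in a two-sided permutation test of Pearson's r within groups (100000 resamples, Benjamini-Hochberg over the 15 pairs). Livers with more Oat than their group had more Cyp2e1 (r = 0.507, p = 9e-05, adjusted 0.00135; Spearman's rho 0.524, p = 0.00011, adjusted 0.00165). Without the 2 arrays farthest from the median of Oat, r was 0.489. For each pair this check used the median of the first gene named. Livers with more Oat also had more Slc1a2 (r = 0.484, p = 0.0017, adjusted 0.0127; rho 0.415, p = 0.00516, adjusted 0.0387; 0.402 without 2 arrays). Glul and Slc1a2 gave r = 0.408 (p = 0.00447, adjusted 0.0207; rho 0.37, p = 0.00846, adjusted 0.0423; 0.349 without 2 arrays). Slc1a2 and Tbx3 gave r = 0.409 (p = 0.00552, adjusted 0.0207), but rho was 0.292 (p = 0.0493, adjusted 0.123) and r was 0.278 without 2 arrays, so this pair rested on few livers. Extremes of Slc1a2 were left out only for this pair, so the check is not alike between pairs.

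Within the 19 livers of each dose, r for Oat and Cyp2e1 was 0.553, 0.455 and 0.514 at 0, 30 and 80 mg/kg, and for Oat and Slc1a2 it was 0.462, 0.463 and 0.537. For Glul and Slc1a2 it was 0.672, 0.552 and 0.048, so that the pooled value came from the other doses. The 2 genes of a pair share their array, and with it its scaling and RNA.

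**Figure D5:**
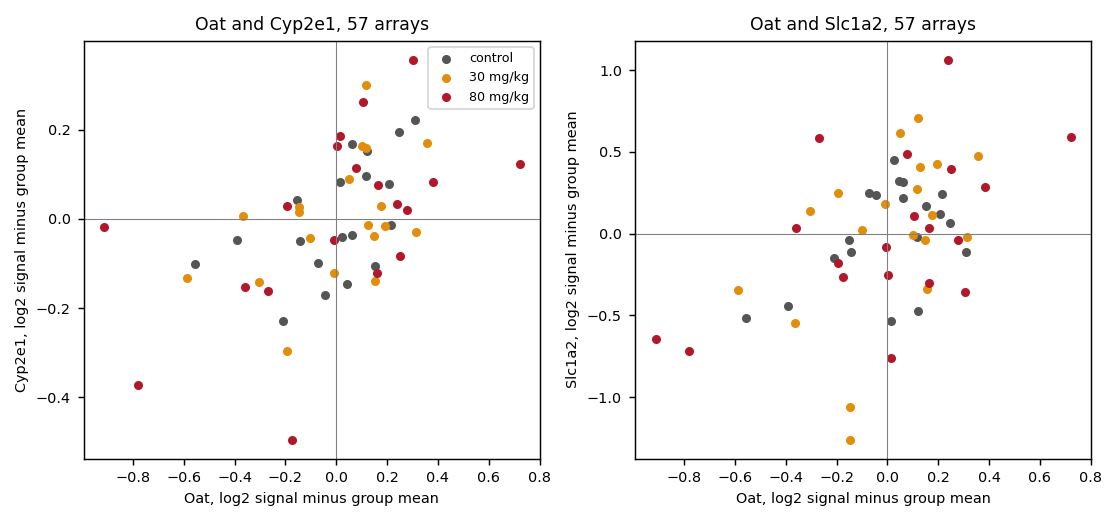
Log2 signal minus its group mean for Oat (x axis) against Cyp2e1 (left) and Slc1a2 (right), 1 point per liver, coloured by dose. Points run from lower left to upper right, with r = 0.507 for Cyp2e1 and 0.484 for Slc1a2 over 57 arrays.

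Over the 12 group means, the order of Oat put the 80 mg/kg groups of days 15, 8 and 4 lowest, at 9.75, 9.88 and 11.07 log2 units, with the other 9 groups between 11.39 and 11.83. Neighbours within those 9 differed by less than 0.2 log2 units, and the spread between livers of a group (SD) was 0.11 to 0.40. The order of Slc1a2 began lowest with 80 mg/kg on days 8, 4 and 15, at 3.35, 3.62 and 3.96. Axin2 was highest in control on day 4 and 80 mg/kg on day 15, at 5.89 and 5.86, and lowest in control and 80 mg/kg on day 24, at 4.85 and 4.86.

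Of 10720 other genes, those whose 12 group means followed Oat most closely were Avpr1a (r = 0.987), Gjb1 (0.987) and Sult1c3 (0.985), and 406 genes had an r above 0.9. For Slc1a2 they were Sult1c2a (0.918), Apoa4 (0.888) and Pgls (0.887), and for Cyp2e1 Atp5f1b (0.968), Ahsg (0.951) and Atp5f1a (0.949). For Glul probe set 1367632_at they were Slc39a8 (0.922), Klhl9 (0.921) and Poglut3 (0.903). For Axin2 they were Hmbox1 (0.926), Alg14 (0.92) and Kiz (0.887), and for Tbx3 Dgcr6 (0.89), Bcl6 (0.852) and Uvrag (0.849). These are descriptions over 12 points that share dose and day.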

How the data were processed

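Liver RNA of 57 rats was measured on 1 array each. The deposited values are MAS5 signal intensities on a linear scale, computed by the authors with MAS5 per the submitters' processing notes. The MAS5 version is not given in the sources used here. Each array had a trimmed mean of 99.99 (2% left out at each end), so the total level per array carries no information. Of 31099 probe sets 20832 had 1 gene symbol in GEO's platform annotation.

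Intensities were taken to log2. A probe set was kept if above 17.09, the median of all values, on at least 4 arrays, and each gene was represented by its kept probe set of highest mean. One model of the 12 groups was fitted over 10726 genes with limma 3.58.1 in R 4.3.3 (empirical Bayes with trend). Adjusted p-values are Benjamini-Hochberg over all genes tested, with a threshold of 0.05. Control days were compared with limma's F test. Probe-set gaps and pairs used permutation tests in scipy 1.17.1 and numpy 2.4.6. The fit was tested on simulated data.

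Replicates are rats, which the labels describe as housed singly, and the number of arrays limits the precision. Same-numbered arrays did not deviate together (correlations of -0.08 to 0.06), so numbers were not taken as pairs. The members, lists and comparisons were chosen with earlier results of these data known. Listed genes named are, per list and day at 80 mg/kg, up to 3 with the largest rise and 3 with the largest fall among those that passed, and, once named, on other days. Per measured gene, the 3 genes of most similar group means are named. The day 4 to day 15 comparison, the Glul gaps and the counts without Glul were added after values were seen. Alternatives varied scaling, filter, offset, probe set rule, variance model, arrays in the fit, the actin ratio and the replicate block.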

Additional observations from a re-analysis of the deposited data

Results flagged for a closer look

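In 7 of the 72 sets formed by a gene and a group, the highest or lowest liver lay apart from the others by more than Dixon's 95% limit, and chance marks about 5% of sets. Oat in replicate 5 at 80 mg/kg on day 4 had a signal of 1139.26, against 2553.58 to 2795.16 in the other livers. Cyp2e1 in replicate 4 at 80 mg/kg on day 8 read 3641.96, against 4808.25 to 5362.55. Axin2 in replicate 5 of that same group read 24.63, against 40.98 to 48.73. Glul was low in replicate 2 of the day 15 controls (1163.07, against 1566.24 to 1623.77) and in replicate 5 at 30 mg/kg on day 15 (1115.23, against 1474.19 to 1546.7). In that last liver Axin2 was high, at 60.35 against 32.59 to 37.63. Slc1a2 in replicate 3 at 30 mg/kg on day 4 read 8.82, against 22.82 to 32.42.

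The effect of 80 mg/kg differed between days by a direct test (limma's interaction) for 4 of the 6 measured genes. The share of all genes that passed was 6.68% between days 4 and 8, 24.4% between days 4 and 15 and 42.7% between days 15 and 24. The Oat effect differed by -0.892 between days 4 and 8, by -1.153 between days 4 and 15 and by 1.698 between day 15 and the end of recovery. The Cyp2e1 effect differed by -0.494 between days 4 and 8, the Glul effect by 0.482 between days 15 and 24, and the Axin2 effect by 1.043 between days 4 and 15. The Oat and Cyp2e1 calls between days 4 and 8 and the Glul call each passed under only 5 of 13 alternative settings. With the mean of probe sets the Glul value was -0.197. The Axin2 comparison was added after values were seen, and its call was lost with the actin covariate (limma adjusted p = 0.0807).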

How the results depend on the processing

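Under alternative settings 1508 values kept their direction and side of the threshold, 48 no longer passed, 23 newly passed, 12 counts moved and 6 values turned. With 1 liver left out 1440 were kept, 95 no longer passed, 14 newly passed and 9 counts moved. The falls of Oat on days 8 and 15 and its return by day 24 passed under all 13 settings and without each liver. The falls of Slc1a2 on days 4 and 8 passed under the 12 settings run for it and without each liver. The stricter filter leaves Slc1a2 out. Most treated livers of those days lay below 17.09 for Slc1a2, so the size of its fall is not well measured. The count of genes that passed at 80 mg/kg was 4 on day 4. It was 2 with the mean of probe sets, 2 with the actin covariate and 2 to 4 on leaving out single livers (2 without control replicate 4 or 80 mg/kg replicates 4 or 5). On day 8 it was 4, and 2 with quantile normalization. On day 15 it was 2. It became 4 with a common median, array weights or only the groups compared, 1 with no filter, the mean of probe sets, no variance trend or without Glul, and 1 to 3 on leaving out single livers. With the replicate block it was 1, as Glul was lost (adjusted p = 0.0522), and the block also ended the day 15 to 24 call of Glul (0.0571). On day 24 it was 0, and 1 with a common median or without 80 mg/kg replicate 5 (0 to 1 over single livers).

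Direction turned in 6 cases where the value passed before or after. With quantile normalization Cyp2e1 became 0.017 on day 8 and 0.208 on day 15 against control, and 0.058 on day 15 against 30 mg/kg. With the mean of probe sets Glul became 0.203 on day 15 against control, 0.008 on day 8 against 30 mg/kg, and -0.197 from day 15 to day 24.

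Counts over all genes moved by over 1.5 times as follows. With a common median, 80 mg/kg against control on day 24 gave 3627 in place of 1097, and against 30 mg/kg 2999 in place of 726 (79 with only the groups compared). With all 18727 probe sets tested in place of 10726 genes, day 15 gave 9835 in place of 6354 against control. Against 30 mg/kg it gave 8936 in place of 5921. The shares were lower, at 52.5% in place of 59.2% against control and 47.7% in place of 55.2% against 30 mg/kg. At 30 mg/kg the count was 84 on day 4 (2 to 197), 25 on day 8 (8 to 70), 10 on day 24 (0 to 19), and on day 15 the share of 4.6% became 300 to 1004 genes. Between days it was 717 from day 4 to 8 (312 with the actin covariate, 387 with a common median, 460 with only the groups compared), 534 from day 8 to 15 (244) and, at 30 mg/kg, 117 from day 15 to 24 (57 and 37).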
